A study of Homo sapiens with 12 samples.

Results

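The AP-1 transcription factor genes described here are FOS, FOSB, FOSL1 and FOSL2 of the FOS family, JUN, JUNB and JUND of the JUN family, and ATF3, BATF3 and MAFF of related families. They were taken by name, and the choice was made with earlier results of these data known. Each symbol matched 1 Ensembl identifier, which gave 10 of the 57820 gene identifiers in the tables, and all 10 were among the 15750 genes with enough counts to be tested. The RNA came from G401, an established line from a human malignant rhabdoid tumour that the labels give as SMARCB1(-/-). SMARCB1 is a subunit of some, not all, BAF (SWI/SNF) complexes, machines that move nucleosomes. Doxycycline induction is given for all 4 groups, of GFP as the control protein in 2 of them and of SMARCB1 in the other two. Each kind of cell then had 24 hours of the solvent DMSO or of dBRD9-A, a small molecule that degrades BRD9, found only in the non-canonical form of BAF. Below, the 4 groups are called GFP with DMSO, GFP with dBRD9-A, SMARCB1 with DMSO and SMARCB1 with dBRD9-A, and each had 3 replicates. The labels name a single line, do not say how long doxycycline was given and do not say whether replicates were separate cultures. The p-values therefore measure the spread between these samples, which may be technical.

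AP-1 is a dimer of basic leucine zipper (bZIP) proteins that binds the sequence TGANTCA, common in enhancers, where BAF complexes are known to open chromatin together with AP-1. JUN proteins pair with each other or with a FOS protein, FOS proteins depend on such a partner for binding DNA, and ATF3, BATF3 and MAFF can pair with members of these families. FOS, JUN and several relatives are immediate early genes, which growth factors, stress and the handling of cells switch on within minutes through MAP kinases, so their RNA can change quickly.

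The libraries held 34.97 to 58.54 megacounts (1e+06 gene counts each). Induction was checked on SMARCB1 itself, which had 0 to 2 counts in the 6 GFP libraries and 53033 to 110893 in the 6 SMARCB1 libraries. Within SMARCB1 cells its RNA was lower with dBRD9-A, at 1307 ± 27.0 CPM against 1875 ± 59.4 in DMSO (SD, n = 3; log2 difference -0.52, adjusted p = 4.95e-08), with no overlap. The level of SMARCB1 RNA thus moves with dBRD9-A in each comparison that uses SMARCB1 with dBRD9-A, and its part in those results was not tested. BRD9 mRNA did not pass the test with dBRD9-A in GFP cells (log2 fold change 0.10, adjusted p = 0.146) or in SMARCB1 cells (0.02, adjusted p = 0.921), and the protein, which the compound acts on, was not measured. Of 4 markers of the line, KRT8, KRT18 and VIM had at least 45667 counts in every library, while CD44 had 0 to 6. Of 8 markers of blood and vessel cells, PTPRC and CD3E were at 0 in every library. Their summed level was 163 to 175 CPM (counts per megacount) in GFP with DMSO, 181 to 199 in GFP with dBRD9-A, 58.2 to 62.0 in SMARCB1 with DMSO and 64.5 to 68.2 in SMARCB1 with dBRD9-A. Nearly all of it was CD68, a lysosomal gene, and the other 7 summed to 0.0710 to 0.242 CPM in GFP with DMSO, 0.0282 to 0.132 in GFP with dBRD9-A, 0.831 to 1.26 in SMARCB1 with DMSO and 0.848 to 1.19 in SMARCB1 with dBRD9-A. With SMARCB1 in DMSO, CD68 fell (log2 fold change -1.52) and VWF, a vessel gene, rose from 1 to 5 counts per library to 22 to 50 (adjusted p = 1.11e-06), and CDH5, another, had 0 counts in each GFP library and 3 to 10 in SMARCB1 with DMSO. The part of these markers in the changes below was not tested. Replicates 2 and 3 of SMARCB1 with dBRD9-A differed most within a group (chi-square per degree of freedom of 25.6, against 2.95 to 10.8 for the other replicate pairs). Without that replicate 2, 423 of all genes were called for dBRD9-A in SMARCB1 cells and 877 for the interaction, against 304 and 598 with it. Among the AP-1 genes, a value without it is given below for FOSL1 with SMARCB1 in dBRD9-A. For other AP-1 genes, ranges over the fits that left out 1 library are given at the end, where a sign changed. In bulk RNA, fewer cells that express a gene and less of its RNA per cell cannot be told apart.

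Levels between genes were compared as CPM per kilobase of exon, with length as the union of all annotated exons of a gene. Such a length can exceed that of the main transcript, so the order of genes with close levels may change with the length used. In GFP with DMSO, JUND was highest at 19.5 ± 0.278 (SD, n = 3), followed by JUNB at 6.88 ± 0.484, ATF3 at 5.98 ± 0.125, FOSL2 at 5.63 ± 0.119, FOS at 5.03 ± 0.136 and FOSL1 at 4.43 ± 0.155. JUN stood at 2.18 ± 0.0210, MAFF at 1.08 ± 0.0453, BATF3 at 0.712 ± 0.104 and FOSB at 0.0563 ± 0.0159. Replicates of neighbours in this order did not overlap, a spread that leaves out any error in the lengths. JUND, a JUN family member known for steady expression in resting cells, was highest in each of the 4 groups, and FOSB, which forms dimers with JUN proteins much as FOS does, was lowest in each. The order changed between GFP and SMARCB1 cells for several genes. JUNB was 2nd in both GFP groups and 5th in both SMARCB1 groups. JUN was 7th of the 10 in both GFP groups and 3rd in both SMARCB1 groups, at 7.77 ± 0.322 with DMSO (SD, n = 3). FOS was 5th in both GFP groups and 8th in both SMARCB1 groups, at 1.13 ± 0.201 with DMSO, where it overlapped BATF3 at 1.29 ± 0.189 (SD, n = 3). FOSL2 and FOS overlapped in GFP with dBRD9-A, and FOSL2 and JUNB overlapped in both SMARCB1 groups.

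**Figure D1:**
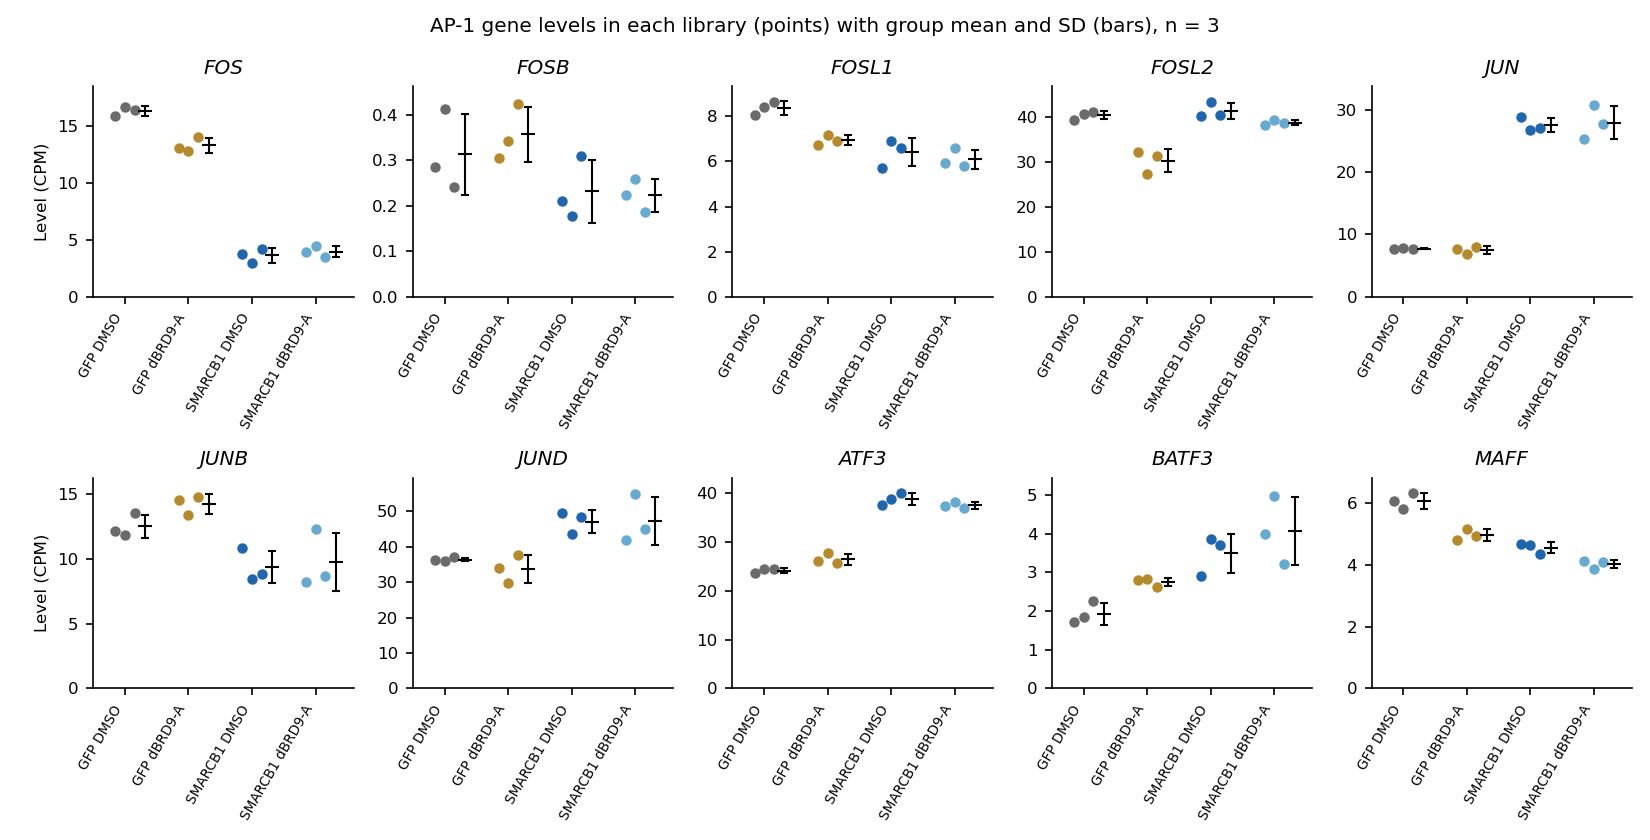
Level of each AP-1 gene in CPM on the y axis, which starts at 0 and differs between panels, in each of the 12 libraries (points) by group, with the group mean and SD over 3 replicates (bars). JUN is 6.82 to 8.05 in the 6 GFP libraries and 25.3 to 30.7 in the 6 SMARCB1 libraries, FOS goes the opposite way, and FOSL2 is low in GFP with dBRD9-A alone (27.2 to 32.04).

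The comparison of SMARCB1 with GFP asks what restoring the missing BAF subunit does to these genes. In DMSO, FOS fell to 0.227 of its level and JUN rose 3.56-fold, and the other changes were smaller. JUND, ATF3 and BATF3 rose with JUN, and FOSL1, JUNB and MAFF fell with FOS. In all, 8 of the 10 AP-1 genes passed the test (edgeR, Benjamini-Hochberg adjusted p under 0.05 over all 15750 genes), 4 higher and 4 lower, against 65% of all genes tested (33.5% higher and 31.6% lower), so the share called is near the background. The median log2 fold change of the 10 was -0.16, beside 0.00 for all genes. With dBRD9-A present, in 6 other libraries, 8 of 10 again passed, 5 higher and 3 lower, against 63.3% of all genes (33% higher and 30.4% lower). With spike-in scaling 5 were higher and 3 lower in DMSO, and 2 higher and 5 lower in dBRD9-A. In dBRD9-A the median with TMM scaling was 0.09, beside 0.01 for all genes. The log2 fold change had the same sign in these 2 comparisons, which share no library, for 10 of 10 AP-1 genes and 86.7% of all genes. For dBRD9-A against DMSO, the sign in GFP cells was that in SMARCB1 cells for 5 of 10 AP-1 genes and 59.4% of all genes. Replicates of the groups compared did not overlap for 8 of 10 in DMSO and 10 of 10 in dBRD9-A, against 68.7% and 66.2% of all genes. Only FOS and JUN passed with a change of 1 log2 unit or more, which makes 2 of 10 in each of the 2 comparisons, against 14.6% and 14.6% of all genes.

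FOS, the founding member of its family and a strong activator of transcription in dimers with JUN, has a short promoter that is well studied. The window of 300 bases around its start in RefSeq (GRCh38.p14, chr14:75278578-75278877, plus strand, 250 bases before the start and 50 from it) is shown because FOS fell most of the AP-1 genes. Capitals mark TGACGTTT, the core of the known cyclic AMP response element of FOS, at -64 to -57 from the start, and the TATA box TATAAA at -33 to -28:
FOS: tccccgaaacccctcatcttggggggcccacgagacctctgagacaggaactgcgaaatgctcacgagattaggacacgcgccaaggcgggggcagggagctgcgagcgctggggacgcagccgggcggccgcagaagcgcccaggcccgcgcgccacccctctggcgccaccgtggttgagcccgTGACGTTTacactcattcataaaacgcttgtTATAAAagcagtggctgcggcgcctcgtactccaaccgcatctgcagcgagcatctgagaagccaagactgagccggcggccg
FOS stood at 15.8, 16.7 and 16.4 CPM in GFP with DMSO and at 3.77, 2.95 and 4.23 CPM in SMARCB1 with DMSO. With dBRD9-A it stood at 13.04, 12.7 and 14.03 CPM in GFP cells and at 3.93, 4.44 and 3.51 CPM in SMARCB1 cells. The lowest GFP library was thus well above the highest SMARCB1 library under both treatments. The log2 fold change with SMARCB1 was -2.14 (SE 0.10, adjusted p = 1.75e-12) in DMSO and -1.73 (SE 0.10, adjusted p = 5.13e-11) in dBRD9-A.

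FOSL1 and FOSL2 encode FRA-1 and FRA-2, FOS relatives without its strong activation domain. FOSL1 stood at 8.06, 8.41 and 8.64 CPM in GFP with DMSO and at 5.70, 6.90 and 6.60 CPM in SMARCB1 with DMSO. The groups did not overlap, and the log2 fold change was -0.38 (SE 0.08, adjusted p = 0.000357), or -0.21 (adjusted p = 0.0659) with spike-in scaling. With dBRD9-A the difference of FOSL1 did not pass the test (-0.18, 95% interval -0.36 to -0.0057, adjusted p = 0.067). It did without replicate 2 of SMARCB1 with dBRD9-A (-0.24, adjusted p = 0.0266) and without replicate 1 of SMARCB1 with DMSO (-0.18, adjusted p = 0.0473), and with spike-in scaling (-0.51, adjusted p = 4.28e-05). FOSB had only 7 to 18 counts per library, and its difference with SMARCB1 did not pass in DMSO (-0.35, 95% interval -1.05 to 0.36) or in dBRD9-A (-0.65, 95% interval -1.37 to 0.07), intervals that also leave room for a large fall.

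FOSL2 behaved differently from its relatives. Its promoter window in RefSeq (GRCh38.p14, chr2:28392608-28392907, plus strand) is shown because it is the only AP-1 gene window examined that holds TGANTCA, as TGACTCA in capitals at bases 5 to 11 from the start:
FOSL2: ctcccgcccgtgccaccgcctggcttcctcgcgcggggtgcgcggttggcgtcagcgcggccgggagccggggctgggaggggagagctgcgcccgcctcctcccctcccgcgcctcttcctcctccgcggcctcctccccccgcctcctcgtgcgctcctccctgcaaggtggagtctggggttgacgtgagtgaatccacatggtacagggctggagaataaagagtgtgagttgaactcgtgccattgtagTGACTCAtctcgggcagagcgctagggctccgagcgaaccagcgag
FOSL2 stood at 39.3, 40.7 and 41.0 CPM in GFP with DMSO and at 40.1, 43.3 and 40.4 CPM in SMARCB1 with DMSO. These groups overlapped (log2 fold change 0.03, 95% interval -0.07 to 0.14, adjusted p = 0.574), although spike-in scaling gave 0.20 (adjusted p = 0.0187). With dBRD9-A it stood at 32.04, 27.2 and 31.3 CPM in GFP cells and at 38.1, 39.3 and 38.6 CPM in SMARCB1 cells. There it was higher with SMARCB1 in each library, with a log2 difference of 0.36 (SE 0.05, adjusted p = 9.36e-06), which was 0.03 (adjusted p = 0.773) when libraries were scaled to spike-in RNA.

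JUN, the founding member of the JUN family, is known to drive its own gene through AP-1-like elements near its start. The window in RefSeq (GRCh38.p14, chr1:58783998-58784297, minus strand) is shown because JUN rose most of the AP-1 genes. Capitals mark the proximal element TGACATCA at -67 to -60 and the distal element TTACCTCA at -186 to -179 from the start:
JUN: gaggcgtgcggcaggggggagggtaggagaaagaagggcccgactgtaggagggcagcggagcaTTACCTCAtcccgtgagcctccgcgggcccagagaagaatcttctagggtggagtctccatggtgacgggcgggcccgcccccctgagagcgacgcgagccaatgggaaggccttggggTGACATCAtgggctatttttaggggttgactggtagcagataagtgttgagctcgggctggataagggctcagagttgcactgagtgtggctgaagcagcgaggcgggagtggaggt
JUN stood at 7.72, 7.80 and 7.65 CPM in GFP with DMSO and at 28.8, 26.7 and 27.1 CPM in SMARCB1 with DMSO. With dBRD9-A it stood at 7.62, 6.82 and 8.05 CPM in GFP cells and at 25.3, 30.7 and 27.7 CPM in SMARCB1 cells. The SMARCB1 libraries were all above the GFP libraries, with a wide gap. The log2 fold change was 1.83 (SE 0.07, adjusted p = 1.49e-13) in DMSO and 1.90 (SE 0.07, adjusted p = 1.89e-13) in dBRD9-A.

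The sequences bear on how far the known elements are shared. RefSeq windows were found for 8 of the 10 AP-1 genes (10 windows), and not for FOSL1 and BATF3. Counting both strands, TGANTCA occurred in the windows of 1 of the 8 genes and in 7.71% of all 35116 windows of this length, and the cyclic AMP response element TGACGTCA in those of 2, JUND and MAFF, against 1.85%. TATAAA occurred in those of 4, FOS, FOSB, JUNB and ATF3 (4 of the 10 windows), against 11.5%. It lay at -33 to -28 from the start in FOS, -30 to -25 in FOSB and -31 to -26 in JUNB. In ATF3 it lay much further upstream, at -230 to -225. The proximal JUN element was in those of JUN and ATF3 (2.61% of all), the distal JUN element in that of JUN (0.715%), the FOS variant TGACGTTT in that of FOS (0.487%), and the CArG box of serum response factor in none of the 10 windows (1.29%). The windows reach only 250 bases before the start, so a CArG box or other element further upstream would not be seen. The proximal, distal and FOS variant elements were added to the search after the windows had been read. TGANTCA does not occur within TGACGTCA, TGACATCA, TTACCTCA or TGACGTTT. A match describes letters in a window and no binding was measured.

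JUNB and JUND went in opposite directions with SMARCB1. JUNB, a weaker activator that can oppose JUN, stood at 12.2, 11.8 and 13.5 CPM in GFP with DMSO and at 10.8, 8.44 and 8.84 CPM in SMARCB1 with DMSO. The groups did not overlap, and the log2 fold change was -0.43 (SE 0.12, adjusted p = 0.00462). With dBRD9-A the fall of JUNB was -0.53 (SE 0.12, adjusted p = 0.000914), from 14.5, 13.3 and 14.8 CPM in GFP cells to 8.22, 12.3 and 8.65 CPM in SMARCB1 cells, where replicate 2 was the highest. JUND stood at 36.2, 35.96 and 36.96 CPM in GFP with DMSO and at 49.5, 43.6 and 48.3 CPM in SMARCB1 with DMSO. Each SMARCB1 library was above each GFP library, and the log2 fold change was 0.37 (SE 0.08, adjusted p = 0.000823). With dBRD9-A the rise of JUND was 0.49 (SE 0.09, adjusted p = 8.3e-05), but 0.15 (adjusted p = 0.133) with spike-in scaling.

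Among the partners outside the FOS and JUN families, ATF3, a stress-induced factor that pairs with JUN, rose with SMARCB1 from 23.6, 24.5 and 24.4 CPM to 37.6, 38.8 and 39.998 CPM in DMSO. The log2 fold change was 0.69 (SE 0.04, adjusted p = 6.57e-11), and 0.50 (SE 0.04, adjusted p = 6.54e-09) in dBRD9-A. Each SMARCB1 library was again above each GFP library. BATF3, which has no activation domain of its own and pairs with JUN proteins, rose from 1.70, 1.84 and 2.25 CPM to 2.90, 3.86 and 3.71 CPM in DMSO (log2 fold change 0.86, SE 0.16, adjusted p = 0.000152). In dBRD9-A its rise was 0.57 (SE 0.16, adjusted p = 0.00404), but 0.24 (adjusted p = 0.15) with spike-in scaling. MAFF, a small MAF protein that also lacks an activation domain, fell from 6.07, 5.82 and 6.32 CPM to 4.68, 4.64 and 4.37 CPM in DMSO (log2 fold change -0.42, SE 0.08, adjusted p = 0.000124). Its fall in dBRD9-A was -0.30 (SE 0.08, adjusted p = 0.00395).

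**Figure D2:**
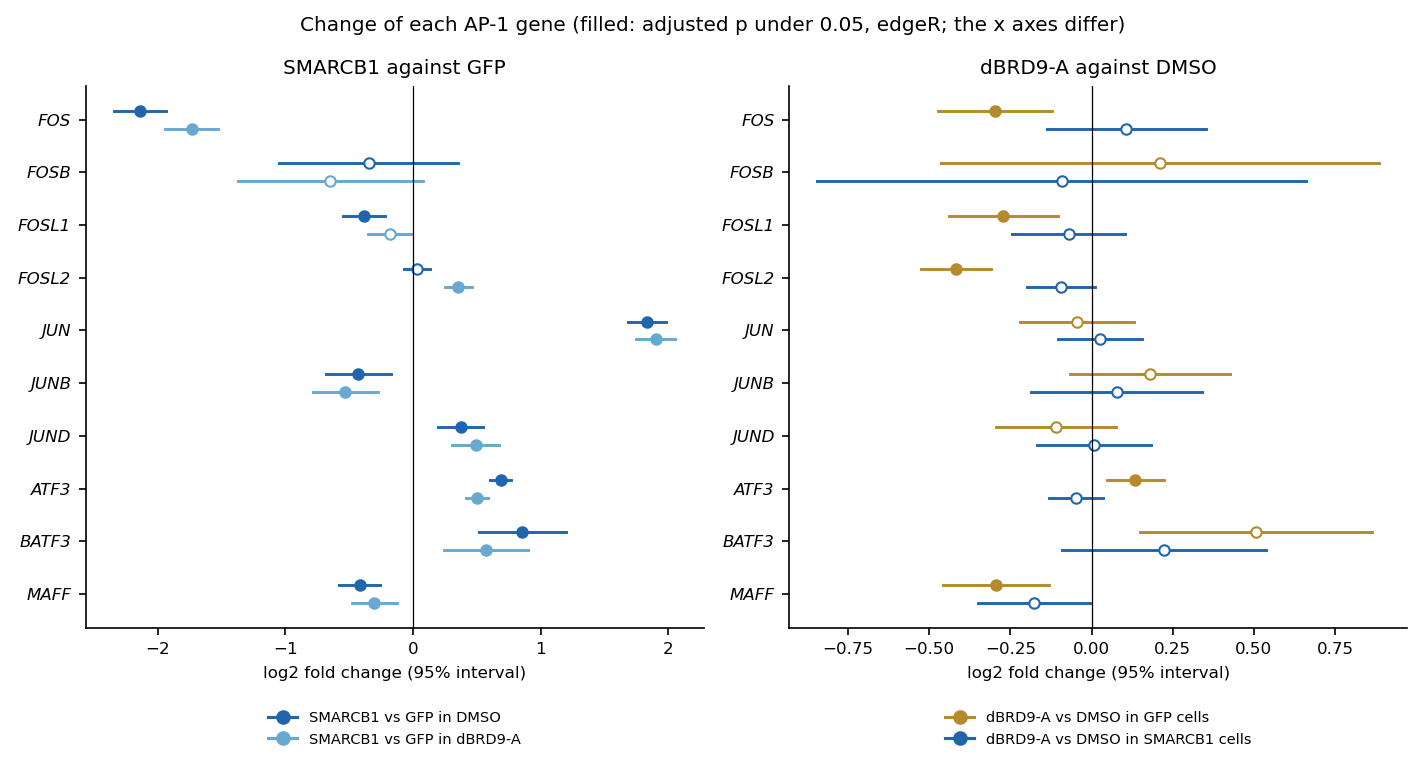
Log2 fold change of each AP-1 gene on the x axis (TMM scaling) with its 95% interval, for SMARCB1 against GFP on the left and dBRD9-A against DMSO on the right, where filled points passed the test and the x axes differ. FOS at -2.14 and JUN at 1.83 lie far outside the others on the left in DMSO, and on the right no gene passes in SMARCB1 cells. With spike-in scaling all 10 points of the right panel's GFP series move up, and FOS, FOSL1, JUN, JUND and MAFF change sign.

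The ratio of FOS to JUN can be read within a library, where no scaling between libraries enters. It would also fall if FOS alone fell or JUN alone rose, so it does not show opposite changes. FOS and JUN had the largest fall and rise of the AP-1 genes in these same data, so the ratio is not independent of those results. There were 2.05, 2.14 and 2.14 FOS counts per JUN count in GFP with DMSO and 0.131, 0.111 and 0.156 in SMARCB1 with DMSO. With dBRD9-A there were 1.71, 1.87 and 1.74 in GFP cells and 0.155, 0.145 and 0.127 in SMARCB1 cells. The ratio was 16.1-fold lower with SMARCB1 in DMSO and 12.5-fold lower in dBRD9-A, from geometric means. An exact two-sided permutation test gave p = 0.1 for each, the smallest that 3 against 3 libraries can give, or 0.133 adjusted over the 8 ratio tests made. With dBRD9-A the ratio was 1.19-fold lower in GFP cells (exact p = 0.1, adjusted 0.133) and 1.08-fold higher in SMARCB1 cells (exact p = 0.7).

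Summed over each family per kilobase, the balance moved less. The 4 FOS family genes stood at 15.2 ± 0.396 CPM per kilobase in GFP with DMSO and at 10.3 ± 0.446 in SMARCB1 with DMSO (SD, n = 3), and the 3 JUN family genes at 28.6 ± 0.742 and 38.2 ± 2.55. The ratio of FOS to JUN family was thus 0.530 ± 0.0156 and 0.272 ± 0.0291 (exact permutation p = 0.1, adjusted 0.133). Within the FOS family, the share of FOS was 33.2% ± 0.315 in GFP with DMSO and 10.9% ± 2.1 in SMARCB1 with DMSO, and FOSL2 held 37.2% ± 0.207 and 55.9% ± 1.82 (SD, n = 3). FOSL2, which did not pass the test itself in DMSO, thus had the largest share in both by these exon lengths. In GFP with DMSO its share was close to that of FOS, so their order may change with the lengths used. Within the JUN family, JUN held 7.64% ± 0.265 and 20.4% ± 0.702, JUNB 24.0% ± 1.1 and 13.4% ± 1.04, and JUND 68.3% ± 0.794 and 66.2% ± 1.11 (SD, n = 3).

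**Figure D3:**
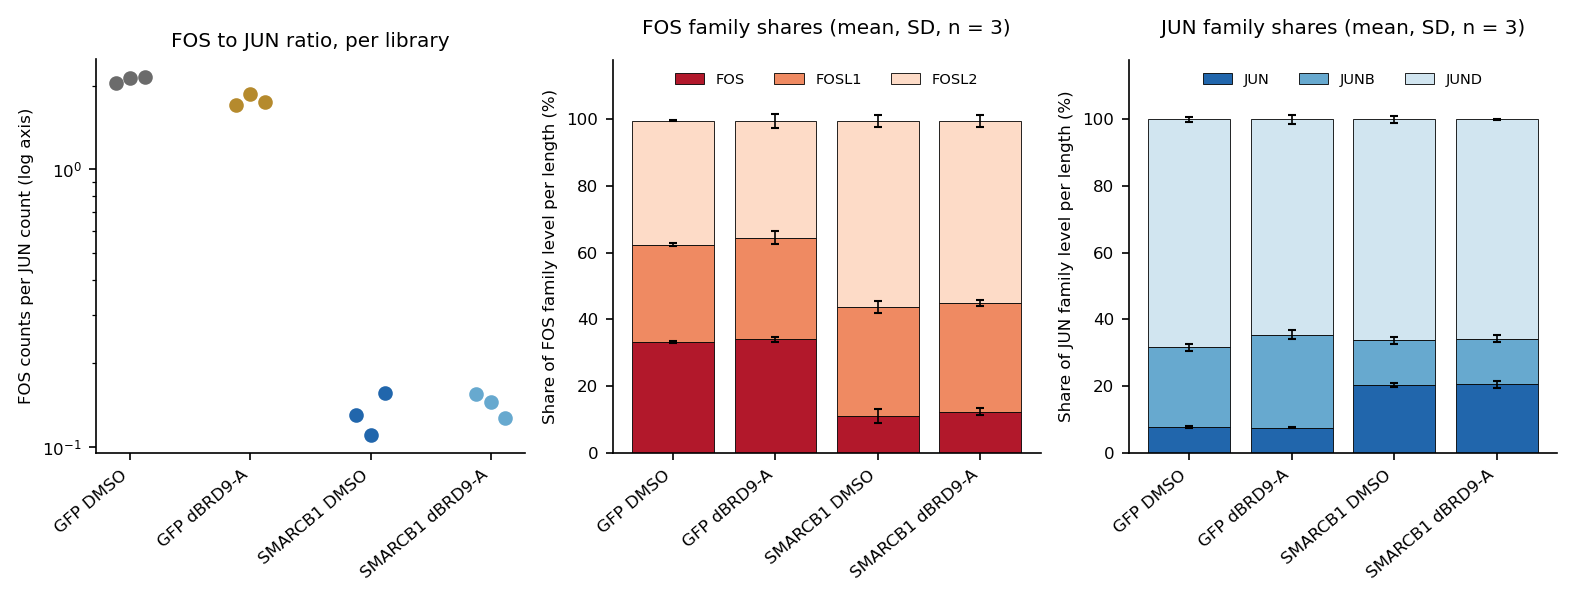
FOS counts per JUN count in each library on a log axis (left), and the mean share of each gene in the FOS family (middle) and JUN family (right) level per kilobase, in percent, with SD over 3 replicates. The ratio is 1.71 or more in the 6 GFP libraries and 0.156 or less in the 6 SMARCB1 libraries. FOSB makes up the small rest of the FOS family and is not drawn.

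The comparison of dBRD9-A with DMSO in GFP cells asks what loss of BRD9 does while SMARCB1 is absent. FOSL2, FOS, MAFF and FOSL1 fell by small amounts and ATF3 rose slightly, relative to the bulk of genes. In all, 5 of the 10 AP-1 genes passed (1 higher, 4 lower), against 15.9% of all genes (7.43% higher, 8.47% lower), and the median was -0.08, beside 0.00 for all genes. None reached an absolute log2 fold change of 1, as did 0.908% of all genes. FOSL2 had the largest of these changes at -0.42 (SE 0.05, adjusted p = 1.54e-05), with each of the 3 dBRD9-A libraries below each DMSO library. FOS changed by -0.30 (SE 0.08, adjusted p = 0.0212), MAFF by -0.29 (SE 0.08, adjusted p = 0.0153), FOSL1 by -0.27 (SE 0.08, adjusted p = 0.0266) and ATF3 by 0.13 (SE 0.04, adjusted p = 0.0366). All of these directions are relative to the bulk of genes, as set by TMM scaling. With spike-in scaling, under which the median of all genes rose by 0.36, FOSL2 stood at -0.06 (adjusted p = 0.515), FOS at 0.06, MAFF at 0.07 and FOSL1 at 0.09, none of which passed. JUN (0.32), JUNB (0.54), JUND (0.26), ATF3 (0.49) and BATF3 (0.87) were then called higher.

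MAFF stood at 6.07, 5.82 and 6.32 CPM in GFP with DMSO and at 4.79, 5.16 and 4.94 CPM with dBRD9-A, and FOSL1 at 8.06, 8.41 and 8.64 CPM and at 6.73, 7.16 and 6.92 CPM. Neither gene overlapped between these groups. ATF3 stood at 26.1, 27.7 and 25.7 CPM with dBRD9-A, above each DMSO library. BATF3 stood at 2.80, 2.82 and 2.63 CPM with dBRD9-A, also above each DMSO library, but missed the threshold (0.51, 95% interval 0.15 to 0.86, adjusted p = 0.0521). Replicates did not overlap for 6 of the 10 AP-1 genes, against 34% of all genes. JUN (-0.04, 95% interval -0.22 to 0.13), JUNB (0.18, -0.06 to 0.43), JUND (-0.11, -0.29 to 0.08) and FOSB (0.21, -0.46 to 0.89) did not pass. The calls other than that of FOSL2 were lost in fits that left out a single library. Of the AP-1 genes, 2 passed without GFP with DMSO replicate 2 or without replicate 3, 1 without GFP with dBRD9-A replicate 1 and 3 without its replicate 2. In those fits FOS had adjusted p of 0.0648, 0.0684, 0.0791 and 0.0875, and its log2 fold change stayed between -0.29 and -0.27. The call of ATF3 was also lost without GFP with DMSO replicate 1 (adjusted p = 0.14), and that of FOSL1 without GFP with dBRD9-A replicate 3 (0.071).

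In SMARCB1 cells none of the 10 AP-1 genes passed with dBRD9-A in edgeR or in DESeq2, against 1.93% of all genes (0.679% higher, 1.25% lower, and 0.146% past an absolute log2 fold change of 1), and MAFF alone had an unadjusted p under 0.05 (0.0448, adjusted p = 0.373). The median log2 fold change was -0.02, beside 0.00 for all genes. MAFF stood at 4.68, 4.64 and 4.37 CPM in DMSO and at 4.12, 3.87 and 4.09 CPM with dBRD9-A, a difference of -0.18 (95% interval -0.35 to -0.0046). Replicates did not overlap for MAFF and FOSL2, or 2 of 10, against 16.9% of all genes. The intervals show what this size of study allows: FOSL2 -0.09 (-0.20 to 0.01), FOS 0.11 (-0.14 to 0.35), JUN 0.03 (-0.10 to 0.15) and ATF3 -0.05 (-0.13 to 0.03). BATF3 stood at 0.22 (-0.09 to 0.54), with replicate 2 with dBRD9-A the highest of the 12 libraries at 4.98 CPM, and FOSB at -0.09 (-0.84 to 0.66).

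Whether the response to dBRD9-A differed between SMARCB1 and GFP cells was tested by the interaction, the log2 response in SMARCB1 cells minus that in GFP cells. FOSL2 was the 1 of 10 AP-1 genes that passed, against 3.8% of all genes (2.15% higher, 1.65% lower, and 0.267% past an absolute log2 fold change of 1), with an interaction of 0.32 (SE 0.07, adjusted p = 0.0137), from a response of -0.42 in GFP cells and -0.09 in SMARCB1 cells. With spike-in scaling, which moved the median interaction of all genes by -0.49, it was -0.18 (adjusted p = 0.137). DESeq2 called 1 of the 10 as well. ATF3 (-0.18, unadjusted p = 0.00554, adjusted p = 0.0987) and FOS (0.40, unadjusted p = 0.0113, adjusted p = 0.149) had an unadjusted p under 0.05 and did not pass. So the fall of FOS in GFP cells is not shown to differ from its value of 0.11 in SMARCB1 cells, although the fit with no filter on low counts gave adjusted p = 0.0325 for FOS. JUN had an interaction of 0.07 (95% interval -0.15 to 0.29), but -0.44 (adjusted p = 0.00229) with spike-in scaling, under which JUNB, JUND, ATF3, BATF3 and MAFF were also called lower.

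**Figure D4:**
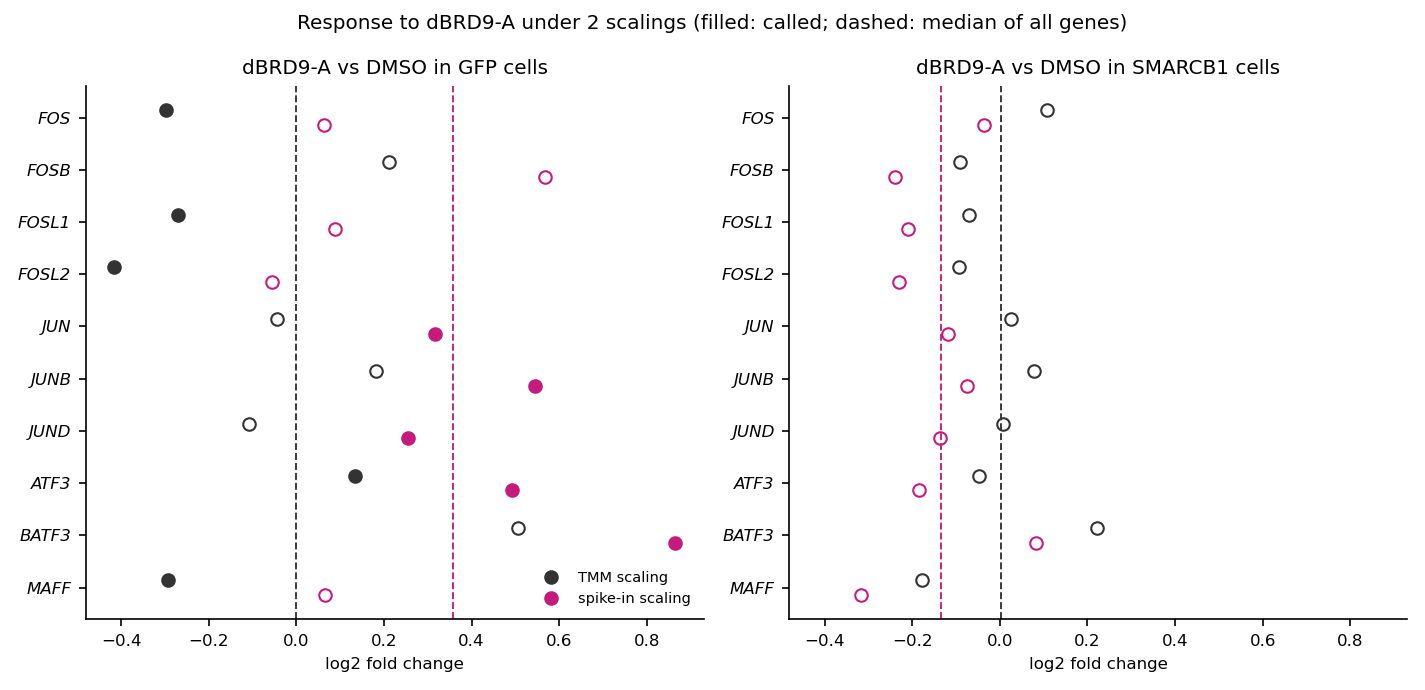
Log2 fold change with dBRD9-A of each AP-1 gene on the x axis, scaled to gene counts (TMM, black) and to spike-in RNA (magenta), in GFP cells (left) and SMARCB1 cells (right), with dashed lines at the median of all genes and filled points where the test was passed. In GFP cells the spike-in median lies at 0.36 and FOS, FOSL1, JUN, JUND and MAFF change sign. The spacing of the genes around each dashed line is nearly the same.

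FOS had the widest range of group mean levels among the 10 (2.16 on the log2 scale), so genes with the most similar pattern were sought for it. Across the 12 libraries, and out of 12584 genes with a mean of at least 50 counts, those with the highest Pearson correlations of log2 CPM with FOS included ACOT2 (r = 0.994), ABTB2 (0.993), SPNS2 (0.993) and OSGIN1 (0.993). The libraries fall into SMARCB1 and GFP ones, so such a value mostly describes that split. With SMARCB1 in DMSO the log2 fold change was -1.02 for ACOT2, an acyl-CoA thioesterase of mitochondria, -3.14 for ABTB2, -2.56 for SPNS2, a transporter of sphingosine-1-phosphate, and -1.96 for OSGIN1.

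The other bZIP factors, which can pair or compete with these proteins, changed both ways with SMARCB1 in DMSO: of 29 listed, 25 were tested, 11 rose and 8 fell (19 of 25, against 65% of all genes), with a median of 0.07 beside 0.00. The largest falls were those of NFE2 (-2.74), a CNC factor that pairs with small MAF proteins such as MAFF, CEBPA (-2.47), a factor of differentiation, and MAFK (-1.62), a second small MAF gene. The largest rises were those of CEBPD (2.18), ATF6 (0.59), a sensor of endoplasmic reticulum stress, and JDP2 (0.43), which binds JUN. In dBRD9-A 9 rose and 9 fell (63.3% of all genes were called), or 4 and 18 with spike-in scaling. With dBRD9-A in GFP cells 4 rose and 2 fell (15.9% of all genes), or 19 and 1 with spike-in scaling, with NFE2 at -0.99 (adjusted p = 0.000389) and MAFK at -0.29 (adjusted p = 0.00395, but 0.08 with spike-in scaling). None passed in SMARCB1 cells (0 at an unadjusted p under 0.05, and 0 in DESeq2, against 1.93% of all genes in edgeR). NFE2 was the 1 gene of the list with an interaction (3.8% of all genes; 20 of the list with spike-in scaling, 19 of them lower), at 1.33 (adjusted p = 0.0162), which missed the threshold without SMARCB1 with dBRD9-A replicate 1 (1.16, adjusted p = 0.0623).

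Of the 27 kinases and factors known to act upstream of AP-1, all tested, 17 rose and 8 fell with SMARCB1 in DMSO (25 of 27, against 65% of all genes), or 18 and 5 with spike-in scaling, with a median of 0.21 beside 0.00. MAP3K1, a kinase at the head of the JNK pathway that phosphorylates JUN, rose from 11.6 ± 0.159 to 61.0 ± 0.749 CPM with n = 3 and the SD after each mean. Its log2 difference was 2.40 (SE 0.05, adjusted p = 2.9e-17). RPS6KA5 (1.21), a kinase of histones and CREB, and MAPK8 (0.74), which encodes JNK1, also rose. RPS6KA1 (-1.41), a kinase downstream of ERK, MAP2K6 (-1.32), a kinase of p38, and MAPK10 (-0.87), which encodes JNK3, fell. In dBRD9-A 16 rose and 9 fell (63.3% of all genes were called), or 6 and 13 with spike-in scaling. With dBRD9-A in GFP cells 5 of 27 passed, against 15.9% of all genes, but 24 with spike-in scaling, all higher. Of the 5, 3 rose (MAPK11 0.21, SRF 0.19 and MAPK3 0.17) and 2 fell, RPS6KA1 (-0.17) and MAP2K5 (-0.16), which stood at 0.19 and 0.20 with spike-in scaling. The calls of MAPK11, SRF and MAP2K5 were lost without GFP with DMSO replicate 1 or 3 and without GFP with dBRD9-A replicate 1 or 3 (adjusted p = 0.0579 to 0.142), and that of MAP2K5 also without its replicate 2 (0.0719). None passed in SMARCB1 cells in edgeR (5 at an unadjusted p under 0.05, and 1 in DESeq2, against 1.93% of all genes). RPS6KA1 had the 1 interaction of the list (3.8% of all genes), at 0.24 (adjusted p = 0.000735), which was -0.26 with spike-in scaling, where 24 of the list were called lower.

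Other immediate early genes did not all go the way of FOS or of JUN. Of 25 listed, 20 were tested, of which 10 rose and 6 fell with SMARCB1 in DMSO (16 of 20, against 65% of all genes; 11 and 4 with spike-in scaling), with a median of 0.12 beside 0.00. EGR1, a zinc finger factor, went up from 0.577 ± 0.158 CPM in GFP cells to 2.35 ± 0.246 in SMARCB1 cells (SD, n = 3; log2 difference 2.06, adjusted p = 3.54e-08), and KLF6 (1.07) and CCN1 (0.72) rose too. SGK1 (-1.64), MYC (-1.56) and KLF2 (-1.12) fell. These genes share fast induction by serum, stress and handling, and how the cultures were handled is not given in the sources used here. In dBRD9-A 11 rose and 7 fell (63.3% of all genes were called), or 6 and 10 with spike-in scaling. With dBRD9-A in GFP cells 4 rose and 3 fell (15.9% of all genes), or 15 and 0 with spike-in scaling, among them DUSP1, a phosphatase that switches off MAP kinases, at -0.35 (adjusted p = 4.77e-05, but 0.0056 with spike-in scaling). In SMARCB1 cells 1 of 20 passed, against 1.93% of all genes, KLF10 at 0.17 (adjusted p = 0.0358, lost without any 1 of the 3 SMARCB1 with DMSO libraries, at 0.0626 to 0.128, or without SMARCB1 with dBRD9-A replicate 1 or 3, at 0.0573 and 0.164, or GFP with dBRD9-A replicate 1, at 0.0521, and 0.03 with spike-in scaling, adjusted p = 0.746). DUSP1 had the 1 interaction of the list (3.8% of all genes), at 0.46 (adjusted p = 0.000384), which was -0.04 with spike-in scaling, where 15 of the list were called lower.

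Genes known as AP-1 targets in other cells also moved both ways. Of 36 listed, 25 were tested, of which 14 rose and 10 fell with SMARCB1 in DMSO (24 of 25, against 65% of all genes; median 0.17 beside 0.00). In dBRD9-A 12 rose and 9 fell (21 of 25, against 63.3%), or 10 and 12 with spike-in scaling. MMP10, a matrix protease, stood at 0.301 ± 0.0101 CPM in GFP cells and rose to 4.45 ± 0.397 in SMARCB1 cells (SD, n = 3; log2 difference 3.86, adjusted p = 4.42e-12), MT2A, a metallothionein, by 1.20 and ITGA5, a fibronectin receptor chain, by 1.16. SPP1, osteopontin, fell by 2.74 on the log2 scale and PLAU, urokinase, by 1.08. With dBRD9-A in GFP cells 3 rose and 7 fell (10 of 25, against 15.9% of all genes), or 15 and 3 with spike-in scaling. There IL6, a cytokine, fell from 2.60 ± 0.334 to 1.39 ± 0.170 CPM (SD, n = 3; -0.89, adjusted p = 0.00041), while HMOX1, heme oxygenase, rose by 0.33 (adjusted p = 6.39e-06). MMP10 was at 0.301 and then 0.0760 CPM there, which rests on few counts. In SMARCB1 cells 3 of 25 fell (1.93% of all genes were called; 6 fell with spike-in scaling), MMP10 from 4.45 ± 0.397 to 1.89 ± 0.304 CPM (-1.23, adjusted p = 7.71e-05), MMP14 (-0.25) and FGF2 (-0.22), and none rose. IL6 (0.85, adjusted p = 0.0197) and HMOX1 (-0.35, adjusted p = 0.000887) were among the 3 genes of the list with an interaction (3.8% of all genes; 16 with spike-in scaling, all lower). That of IL6 was 0.35 with spike-in scaling, where it did not pass (adjusted p = 0.145). The call for IL6 was also lost without GFP with DMSO replicate 3 (adjusted p = 0.0588), or GFP with dBRD9-A replicate 1 (0.052) or 3 (0.0645).

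**Figure D5:**
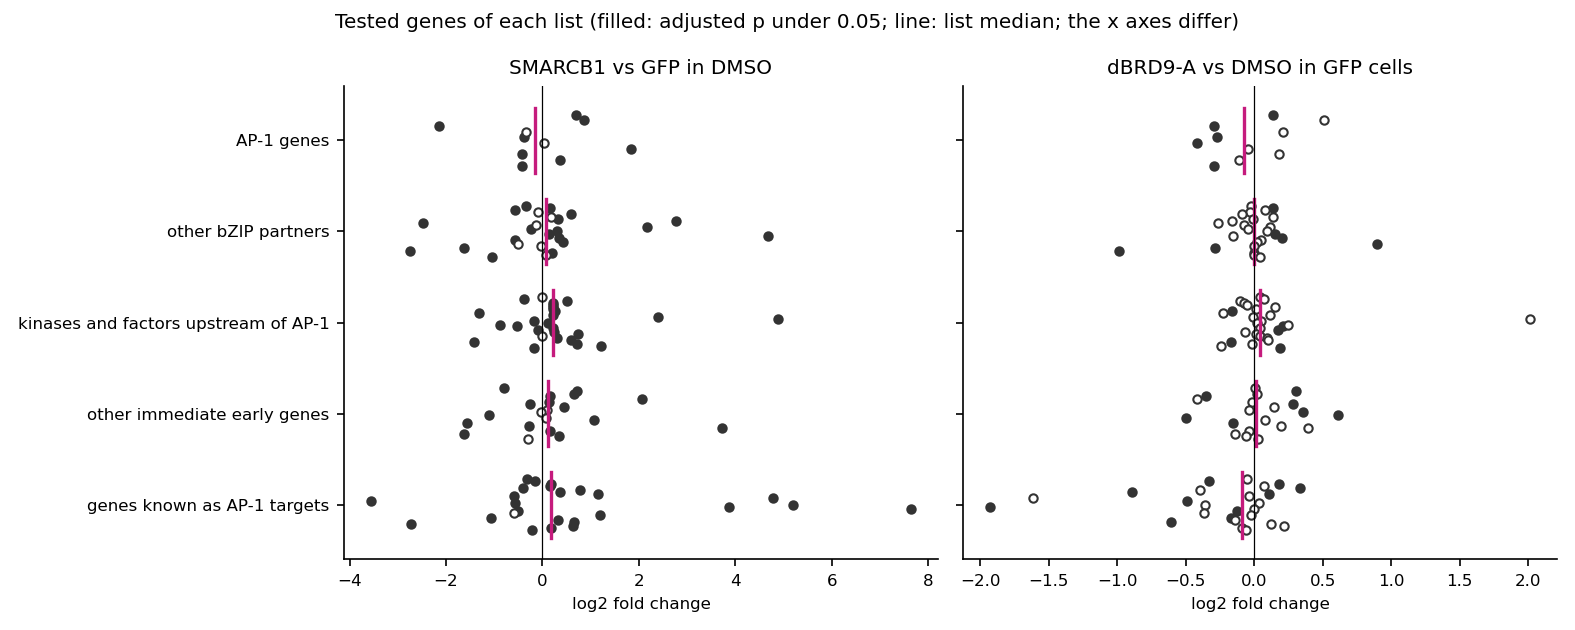
Log2 fold change (TMM scaling) of each tested gene of the AP-1 set and of 4 other lists on the x axis, for SMARCB1 against GFP in DMSO (left) and dBRD9-A against DMSO in GFP cells (right), with filled points where the test was passed, a magenta line at the list's median, and x axes that differ. The medians on the left lie between -0.16 and 0.21, near the median of all genes (0.00), with single genes far to both sides. With spike-in scaling the median of all genes in the right panel lies at 0.36.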

How the data were processed

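The deposited values are expected counts per gene from RSEM 1.3.1, made by the authors after alignment with STAR to GRCh37 (hg19), per the submitters' processing notes. The annotation and the use of strand are not given in the sources used here. FOSB, FOSL2, JUNB and MAFF overlap a gene on the opposite strand in GENCODE 29, so their reads may be shared. FOSL2 also overlaps AC104695.3 on the same strand. Expected counts were rounded, 40 spike-in identifiers were set apart (0.963% to 1.30% of counts) and 15750 genes passed filterByExpr (minimum count 10). The edgeR 4.0.16 quasi-likelihood test (R 4.3.3) was fitted to all 12 libraries with TMM scaling and 1 coefficient per group. Genes were called at a Benjamini-Hochberg adjusted p under 0.05 over all genes. CPM are on TMM-scaled library sizes, ± is the SD, and intervals are 95%. Exon lengths came from GENCODE 29 and promoter windows from RefSeq (GRCh38.p14), so no coordinates of the files' build are given.

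All 10 AP-1 genes are named whatever their values. From each other list, per comparison, the text draws on the 3 largest rises and falls among called genes with a mean of at least 50 counts and replicates that did not overlap. The AP-1 genes and the lists were chosen with earlier results of these data known. Alternatives were DESeq2 1.42.0, its size factors in edgeR, spike-in scaling, no filter, a replicate block, fitting only the groups compared, a limit of 1 on the absolute log2 fold change, and leaving out each library in turn. The fits on fewer libraries kept the same 15750 genes. The script was tested on simulated data with known changes. Counts without molecular identifiers are not independent molecules. Some genes that these rules name are not reported here.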

Additional observations from a re-analysis of the deposited data

Results flagged for a closer look

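FOSL2, which encodes FRA-2, is the AP-1 gene whose response to dBRD9-A differed between the kinds of cell by a test of the difference itself. Its interaction came to 0.32 in log2 units (SE 0.07, edgeR adjusted p = 0.0137), from -0.42 in GFP cells and -0.09 in SMARCB1 cells. FOSL2 was lower in each of the 3 GFP libraries with dBRD9-A than in each of the other 9 libraries. Over the 12 fits that each left out 1 library, the interaction was 0.25 to 0.37 with adjusted p of 0.00842 to 0.0406. It depends on the scaling, since spike-in scaling gave -0.18 (adjusted p = 0.137).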

How the results depend on the processing

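The rise of JUN and the falls of FOS with SMARCB1 kept their direction and their call under each alternative run, in both treatments (JUN 1.57 to 2.003, FOS -2.28 to -1.66). Over all AP-1 genes, comparisons and alternatives, 846 of 937 values kept their direction and call, 41 lost a call, 20 gained one and 30 changed sign. Values not called before or after count as kept, as did 177 of 189 for dBRD9-A in SMARCB1 cells. Fewest were kept for dBRD9-A in GFP cells, at 149 of 189. Depth limits FOSB (7 to 18 counts per library). The labels do not say how the spike-ins were added, so which scaling reflects RNA per cell cannot be told apart here.

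The AP-1 genes called with a limit of 1 on the absolute log2 fold change were 2 and 2 for SMARCB1 in DMSO and in dBRD9-A, 0 for dBRD9-A in GFP cells and 0 for the interaction. Spike-in scaling gave 6 for the interaction (all lower) and no filter gave 2. Leaving out 1 library gave 8 to 8 for SMARCB1 in DMSO, 8 to 9 in dBRD9-A, 1 to 6 for dBRD9-A in GFP cells, 0 to 0 in SMARCB1 cells and 1 to 1 for the interaction.

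Spike-in scaling moved the median of all genes by 0.17 and -0.32 for SMARCB1 in DMSO and in dBRD9-A, by 0.36 and -0.14 for dBRD9-A in GFP and SMARCB1 cells and by -0.49 for the interaction. Of all genes called, the share higher went from 51.4% to 72.6%, from 52% to 19.1%, from 46.7% to 98%, from 35.2% to 4.47% and from 56.5% to 0.586%, and of the AP-1 genes 5 of 8, 2 of 7, 5 of 5, 0 of 0 and 0 of 6 were then higher. Signs changed by it were, for dBRD9-A in GFP cells, FOS 0.0638, FOSL1 0.0873, JUN 0.32, JUND 0.26, MAFF 0.0660, RPS6KA1 0.19, MAP2K5 0.20, MAFK 0.0760, DUSP1 0.0056 and MYC 0.20. In SMARCB1 cells they were FOS -0.0374, JUN -0.12, JUNB -0.0747 and JUND -0.14. For the interaction they were FOS -0.10, FOSL1 -0.30, FOSL2 -0.18, JUN -0.44, JUND -0.39, MAFF -0.38, RPS6KA1 -0.26 and DUSP1 -0.0379. Other changes of call of AP-1 genes by it stand beside the results, apart from FOSB (-0.98, adjusted p = 0.0274) for SMARCB1 in dBRD9-A.

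DESeq2 gave JUND -0.0016 for dBRD9-A in SMARCB1 cells. For dBRD9-A in GFP cells it did not call ATF3 (adjusted p = 0.0648) or MAFF (0.0612) and called BATF3 (0.0374). With no filter ATF3 was not called (0.117). Leaving out 1 library changed the sign of 14 values of AP-1 genes, none of them called. The 12 fits ranged from -0.00176 to 0.0528 for FOSL2 with SMARCB1 in DMSO and from -0.0939 to 0.0183 for JUN with dBRD9-A in GFP cells. For dBRD9-A in SMARCB1 cells they ranged from -0.0160 to 0.248 for FOS, from -0.246 to 0.219 for FOSB, from -0.0516 to 0.0881 for JUN, from -0.142 to 0.183 for JUNB and from -0.120 to 0.0860 for JUND. For the interaction they ranged from -0.518 to 0.00776 for FOSB, from -0.00772 to 0.132 for JUN, from -0.322 to 0.00234 for JUNB and from -0.0101 to 0.198 for JUND.

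Of all genes, counts moved by over 1.5 times with spike-in scaling (11310 for dBRD9-A in GFP cells, 873 in SMARCB1 cells and 11270 for the interaction, against 2504, 304 and 598), with the limit of 1 (2305, 2300, 143, 23 and 42 over the 5 comparisons), and in SMARCB1 cells with no filter (652), with only the groups compared (156) and without SMARCB1 with DMSO replicate 2 (174) or 3 (171) or SMARCB1 with dBRD9-A replicate 3 (195). The values did not show that the replicate numbers pair the samples. Correlations of deviations between same-numbered libraries were -0.06 to 0.06, and 3 of 12 libraries correlated best with their own number. With 3 replicates per group this cannot exclude pairing. With a replicate block 9 AP-1 genes were called for SMARCB1 in dBRD9-A, FOSL1 being added (adjusted p = 0.0474), and in the other comparisons 8, 5, 0 and 1 as without it. The causes of these changes were not tested.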
